A study of Olea europaea with 36 samples.

Results

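Gene expression in growing shoot tips of the olive variety Arbosana was compared with that of the variety Picual, over 37449 contigs, which are assembled olive transcript sequences each probed on a NimbleGen oligonucleotide array. The arrays were chosen by their titles, 3 for Arbosana and 3 for active Picual, which is 6 of the 36 arrays in the series. The series covers 12 groups of 3 arrays: active shoot tips of 4 varieties (Picual, Arbequina, Arbosana and Chiquitita), dormant shoot tips of Picual, and pools of seedlings selected for a trait. The seedling pools came from the cross Picual x Arbequina (short and long internodes, SILe and LILe; small and large trunk diameter, SmaD and LarD) and from the cross Chiquitita x Arbosana (a canopy like that of Chiquitita, ChiCa; simple and complex branching). For SmaD replicates 2 and 3 a second label names short internodes, and they were placed by their titles.

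Arbosana and Picual are clonally propagated cultivars that differ in vigour and canopy, and both were sampled from adult field-grown trees of the same breeding institute at Cordoba. Neither group had a treatment. Shoot tips were cut on late spring mornings and frozen at once. The shoot tip holds the apical meristem together with young leaves and stem, so the RNA came from a mixture of cell types; fewer cells of a type and less RNA per cell cannot be told apart. The 3 replicates of a variety were separate shoot samples of 1 genotype, and the study describes a sample as shoots taken from 1 individual. Whether the 3 came from the same tree is not said, so the p-values below measure the spread between shoot samples.

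In plants the shoot apical meristem keeps a small population of stem cells while it gives rise to leaves, stem and axillary buds. In Arabidopsis the size of that population is held by a loop between the transcription factor WUSCHEL and the CLAVATA peptide and receptors, with chromatin remodellers and corepressors acting on it. Gibberellins and brassinosteroids then set how far the stem elongates. Axillary buds that stay dormant or grow out decide how densely a canopy branches.

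Only 11 of the contigs carry a gene name here, given by the study as putative orthologs of Arabidopsis genes, and 3 more are named by the study by number alone. The primers the study designed for RT-qPCR are the only sequences of these contigs used here. They are shown for SCL30 and SAL1, which differed most firmly between the varieties, and for SVP and CDC45, which also set Arbosana beside other groups; each runs 5′ to 3′, in lower case, with no letters set apart.
SCL30 (Contig_17106) forward: tggtaccacttacgggaagg
SCL30 (Contig_17106) reverse: ggatcatcggagaaattagcc
SAL1 (Contig_44917) forward: ttccacggtcaatggcatcgagc
SAL1 (Contig_44917) reverse: gaaacccgaggaacactagtgcgc
SVP (Contig_35467) forward: tgccagctccagcatgaaggacata
SVP (Contig_35467) reverse: actgtcctcgactagctgcttcgg
CDC45 (Contig_44219) forward: tctcaaggatgggacaaagg
CDC45 (Contig_44219) reverse: gttgcaatgtaggacgagca

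The values are normalized fluorescence intensities, compared on the log2 scale. On the 6 arrays they ran from 7.33 to 61165, with log2 medians of 9.38 to 9.64 per array. Across contigs, Pearson's r of the log2 values was 0.962 to 0.972 between Arbosana arrays, 0.953 to 0.980 between Picual arrays and 0.906 to 0.959 between the varieties; contigs are not independent replicates. Replicates were not equally close at single contigs. Arbosana 1 lay at least 8-fold below both other Arbosana arrays at 152 contigs, Picual 3 lay at least 8-fold above both other Picual arrays at 81, and Arbosana 3 lay as far above its own group at 38.

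Between the varieties 1489 contigs were called, which is 3.98% of all contigs tested (limma, adjusted p under 0.05 and at least 2-fold). Of these, 595 (1.59%) were higher in Arbosana and 894 (2.39%) were lower. The median change of a called contig was 3.88-fold among those higher and 3.83-fold among those lower, and 43 of the first and 49 of the second changed at least 16-fold. A 2-fold difference in the mean was much more common than a call: 6275 contigs had one, and 4786 of them were not called, among them 1514 whose arrays overlapped between the varieties. The arrays of Arbosana and Picual were fully separated at 29.2% of all contigs and at each of the 1489 called. A call needs a difference that is large against the spread of the arrays, so the separation of called contigs is no separate support.

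**Figure D1:**
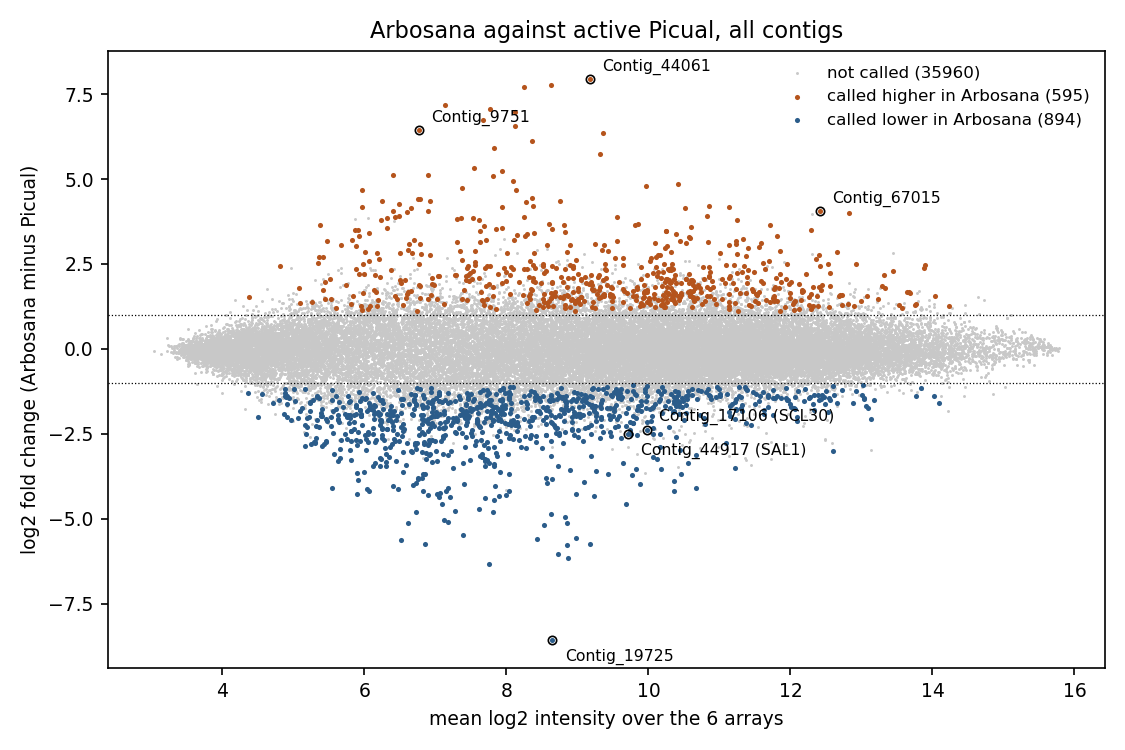
Each point is 1 contig, placed by its mean log2 intensity over the 6 arrays and its log2 fold change, Arbosana minus active Picual; dotted lines mark 2-fold. The 595 contigs called higher in Arbosana and the 894 called lower spread over nearly the whole range of levels, with few calls at the dim end.

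The number of calls fell whichever array was left out, by amounts that differed between arrays. Each such fit also had fewer arrays to test with, and the part of this in the fall was not tested. The same holds for the single calls below that were lost without an array. Without Arbosana 1, 592 contigs were called, without Arbosana 2 there were 370, and without Picual 2 there were 439. Without Picual 1 the count was 968, without Picual 3 it was 969, and without Arbosana 3 it was 1295. The left-out array served as a check, since it took no part in that choice. On a scale from the Picual mean (0) to the Arbosana mean (1), the left-out Arbosana arrays had median positions of 0.894, 1.03 and 0.759, and the left-out Picual arrays 0.160, 0.0638 and 0.107. The left-out array lay nearer its own variety at 73.8% of the contigs called without it (Arbosana 3) to 97.6% (Arbosana 2).

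Contigs in the middle and lower part of the intensity range were called most often. With the contigs split into deciles by mean level, 8.17% were called in the third decile, against 0.187% in the lowest and 1.15% in the highest. In the third decile 231 calls were lower and 75 higher in Arbosana, and in the highest decile 16 were lower and 27 higher. Where the weaker variety stayed at an intensity of at least 512, 245 contigs were called higher in Arbosana and 166 lower; where it lay under 64, 115 were higher and 315 lower. The signal over background was not examined, and a weaker match of Arbosana or Picual transcripts to a probe and a smaller amount of transcript cannot be told apart, so a fold taken against a dim group is uncertain.

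Of the 14 contigs the study names, 6 were called, all lower in Arbosana, against a background of 2.39% of contigs called lower. The study picked these contigs partly on the Arbosana arrays, so this count is a description and not independent evidence. Their median log2 fold change was -1.02, where that of all contigs was -0.05, and 9 of the 14 were lower in Arbosana in the mean. Fewer of them were called when an array was left out: 3 without Arbosana 1, 2 without Arbosana 2, 4 without Arbosana 3, 3 without Picual 1 or Picual 2 and 4 without Picual 3.

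Among the contigs for meristem regulators, the one for TPR1 was called. TPR1 is a TOPLESS-related corepressor that in Arabidopsis is brought to DNA by transcription factors of hormone and meristem pathways. Contig_50371 (TPR1) read 26.3, 19.7 and 18.7 on the Arbosana arrays and 143, 52.9 and 76.2 on the Picual arrays. All 6 values lay well under the median of all contigs, 722, and the groups did not overlap: the log2 fold change was -1.97 ± 0.39 (SE, n = 3 and 3; limma, adjusted p = 0.0362). The call was lost without any 1 of Arbosana 1, 2 or 3 or Picual 1 or 3 (limma, adjusted p = 0.0581 to 0.130), and when 32 was added to each intensity before the log (limma, adjusted p = 0.0778).

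CLV1, the receptor kinase that restricts the stem cell population in Arabidopsis, was represented by Contig_43041, a bright contig. It read 5183, 4031 and 6317 in Arbosana and 8830, 11892 and 11636 in Picual. The groups did not overlap, and the log2 fold change was -1.07 ± 0.28 (SE), yet the contig was not called (limma, adjusted p = 0.0741). It was called when the 12 arrays of the varieties, all 36 arrays, array weights or an intensity trend entered the fit, with adjusted p from 0.00765 to 0.0436 in limma. Contig_67514 (SYD) stands for SPLAYED, a chromatin remodeller that promotes WUSCHEL expression in Arabidopsis. Its Arbosana arrays were uniform, at 4036, 5891 and 7375, and its Picual arrays were not, at 318, 560 and 7450. Picual 3 thus lay above every Arbosana array while the other Picual arrays lay far below, and no call was made (log2 fold change 2.35 ± 1.04 SE; limma, adjusted p = 0.225). Without Picual 3 the log2 fold change was 3.73 (limma, adjusted p = 0.00862), and array weights also gave a call (limma, adjusted p = 0.0167).

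Among the hormone-related contigs, SCL30 differed clearly and had the lowest adjusted p of the 14. SCL30 is a GRAS-family protein, a group of plant regulators that also holds the DELLA repressors of gibberellin signalling. Contig_17106 (SCL30) read 487, 342 and 520 in Arbosana and 2360, 2387 and 2148 in Picual, so each Picual array was over 4 times each Arbosana array. The log2 fold change was -2.38 ± 0.26 (SE; limma, adjusted p = 0.00447), and the contig stayed called without each array in turn. It was lower in Arbosana than in any other group: the next lowest was Arbequina at 970 ± 178 (SD, n = 3), and dormant Picual was highest at 2953 ± 276.

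The other hormone-related contigs were not called. Contig_10295 (SPY), for a protein that restrains gibberellin signalling in Arabidopsis, read 296, 303 and 365 in Arbosana and 116, 218 and 159 in Picual (log2 fold change 1.01, 95% interval 0.32 to 1.70; limma, adjusted p = 0.101). Contig_61776 (DWF4), for a brassinosteroid biosynthesis enzyme, read 90.9, 78.6 and 46.8 in Arbosana and 102, 127 and 192 in Picual (log2 fold change -0.97, 95% interval -1.80 to -0.13; limma, adjusted p = 0.163). Neither overlapped between the varieties, as was the case for 29.2% of all contigs.

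Contig_44917 (SAL1) fell furthest of the named contigs. In Arabidopsis SAL1 is a phosphatase of inositol phosphates and of an adenosine phosphate that signals stress from the chloroplast. It read 424, 420 and 251 in Arbosana and 1896, 1953 and 2144 in Picual, with a log2 fold change of -2.49 ± 0.29 (SE; limma, adjusted p = 0.00540). As for SCL30, the call was kept without each array in turn, and Arbosana stood lowest of the 12 groups, at 365 ± 98.9 (SD, n = 3). The next lowest was SILe at 1124 ± 557, where SILe 3 read 488 beside 1526 and 1357. Arbequina at 2120 ± 264 and Chiquitita at 2288 ± 736 lay near Picual at 1998 ± 130.

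CDC45, a part of the helicase that opens DNA for replication, is the 1 proliferation gene among the named contigs. Contig_44219 (CDC45) read 674, 407 and 701 in Arbosana and 1509, 1974 and 2424 in active Picual. The groups did not overlap, with a log2 fold change of -1.74 ± 0.32 (SE; limma, adjusted p = 0.0292). Dormant Picual shoot tips, at 529, 688 and 402, overlapped with the Arbosana arrays, and Arbequina stood at 803 ± 50.7 (SD, n = 3). The other groups lay between 1205 (LarD) and 2331 (complex branching) in the mean. The call between Arbosana and active Picual was lost without Arbosana 1 (limma, adjusted p = 0.0721), Arbosana 2 (0.0939), Picual 2 (0.103) or Picual 3 (0.0708). Whether growth activity differed between the shoots sampled was not tested.

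SVP is a MADS-box transcription factor that represses flowering in Arabidopsis, and related genes act in the bud dormancy of peach and other trees. Contig_35467 (SVP) read 631, 423 and 199 in Arbosana and 2538, 1477 and 1592 in Picual, with no overlap and a log2 fold change of -2.27 ± 0.45 (SE; limma, adjusted p = 0.0362). Across the groups it was lowest in Arbequina at 61.3 ± 25.6 (SD, n = 3), then in Arbosana at 418 ± 216, and the other 10 groups lay between 1869 (active Picual) and 2923 (ChiCa). The Arbosana and Arbequina arrays did not overlap with each other or with active Picual. The call between Arbosana and Picual was lost without Arbosana 2 (limma, adjusted p = 0.118), Picual 1 (0.0785), Picual 2 (0.0936) or Picual 3 (0.0730).

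Contig_6392 (IRX1) stands for a cellulose synthase subunit of secondary cell walls. It read 1388, 1306 and 1008 in Arbosana and 214, 202 and 778 in Picual; the groups did not overlap, and Picual 3 was again the Picual array nearest Arbosana. The contig was not called (log2 fold change 1.92 ± 0.52 SE; limma, adjusted p = 0.0803), and without Picual 3 the log2 fold change was 2.56 (limma, adjusted p = 0.00954). Contig_40482 (EDL2), for an F-box protein of a family that acts in light signalling, overlapped between the varieties (log2 fold change 0.25, 95% interval -0.39 to 0.89; limma, adjusted p = 0.622).

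Of the 3 contigs without a gene name, Contig_15512 was called. It read 63.8, 88.9 and 40.7 in Arbosana and 361, 152 and 269 in Picual (log2 fold change -2.00 ± 0.42 SE; limma, adjusted p = 0.0427), and the call was lost when any 1 of the 6 arrays was left out (limma, adjusted p = 0.0550 to 0.108). Contig_29050 was not called (log2 fold change 0.74, 95% interval -0.08 to 1.56), and neither was Contig_12843, which read 3373, 4385 and 4224 in Arbosana and 3580, 4244 and 4209 in Picual. For Contig_12843 the 95% interval of the log2 fold change ran from -0.58 to 0.55.

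**Figure D2:**
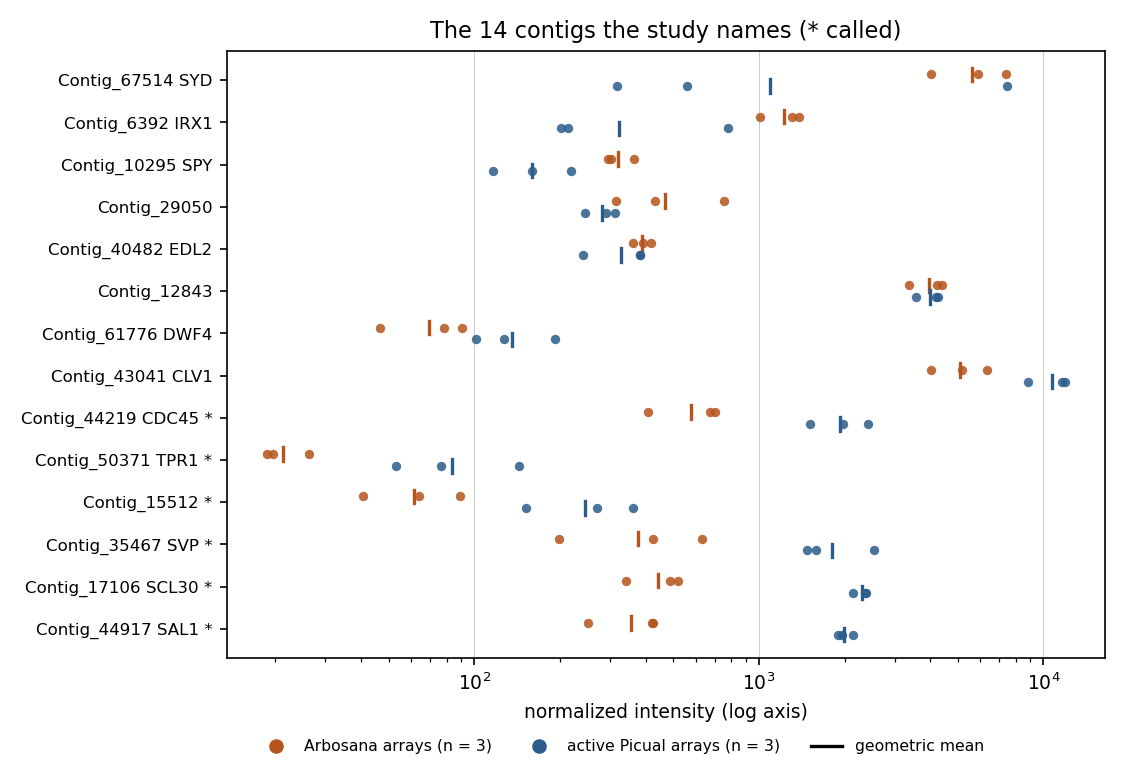
Normalized intensity on a log axis for the 14 contigs the study names, sorted by fold change, with 1 point per array and a bar at the geometric mean of 3 arrays. The 6 called contigs, marked with a star, are all lower in Arbosana, and the Picual points of SYD run from 318 to 7450.

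Much larger changes were found in contigs without a gene name. The largest rise was in Contig_44061, which read 9069, 12317 and 6751 in Arbosana and 35.6, 38.3 and 36.5 in Picual. This is a 248-fold difference (limma, adjusted p = 5.92e-05). The largest fall was in Contig_19725, which read 15.9, 14.7 and 37.6 in Arbosana and 8788, 8006 and 6766 in Picual, a 378-fold difference (limma, adjusted p = 0.000140). The other 9 largest rises ran from 81.2-fold (Contig_20449) to 217-fold (Contig_52085), and the other 9 largest falls from 47.6-fold (Contig_52314) to 79.8-fold (Contig_60710). The dimmer variety lay under the median of all contigs, 722, at each of the 20, so that the folds are uncertain. The 20 were chosen among called contigs without overlap between the varieties. That every array shows the same direction was therefore fixed by the choice. All 10 rises and 9 of the 10 falls stayed called when each array was left out in turn.

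The exception was Contig_13354, which read 23.7 and 28.9 on Arbosana 1 and 2 but 364 on Arbosana 3, and 2152, 6486 and 2900 in Picual. Its call (limma, adjusted p = 0.0240) was lost without Arbosana 1 (0.0742), Arbosana 2 (0.105), Picual 2 (0.0851) or Picual 3 (0.0565).

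**Figure D3:**
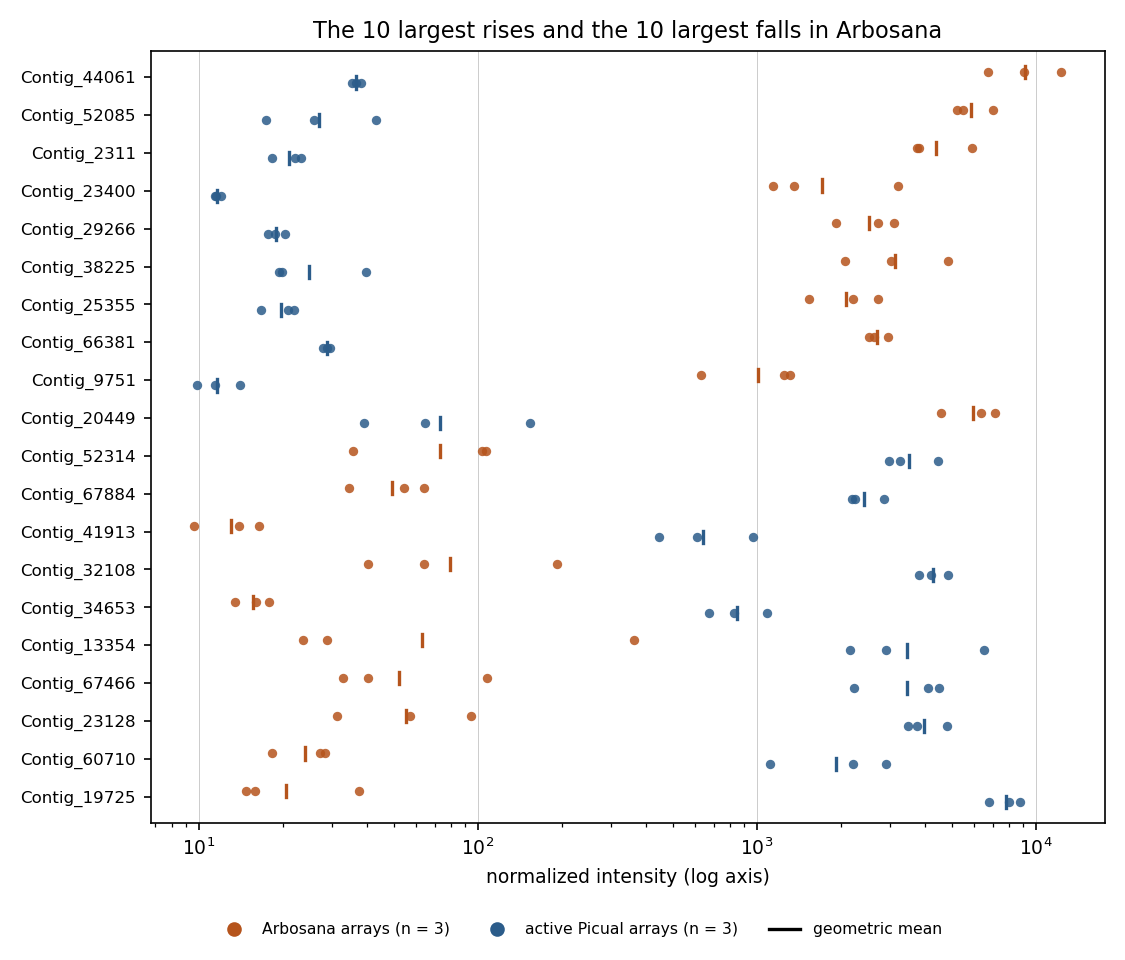
Normalized intensity on a log axis for the contigs with the 10 largest rises and the 10 largest falls in Arbosana, with 1 point per array and a bar at the geometric mean of 3 arrays. The arrays of the varieties lie far apart at each contig, and Arbosana 3 stands nearest to Picual at Contig_13354, at 364.

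Contigs that were above the median level of all contigs in both varieties had smaller changes. The largest rise among them was in Contig_67015, which read 21225, 25173 and 20446 in Arbosana and 1223, 1416 and 1376 in Picual. The difference was 16.6-fold (log2 fold change 4.05 ± 0.24 SE; limma, adjusted p = 0.000366), and the call was kept under every alternative tried. Contig_45134 rose 10.1-fold (limma, adjusted p = 0.00702), and it was also bright in dormant Picual, at 17623, 7980 and 6244. The other 3 of the 5 bright rises, Contig_35101, Contig_52105 and Contig_27203, each had 1 Picual array well above the other Picual arrays. For Contig_35101 Picual 3 read 7873 beside 930 and 811, for Contig_52105 Picual 1 read 3674 beside 424 and 555, and for Contig_27203 Picual 2 read 3996 beside 988 and 822. Contig_27203 was no longer called without Arbosana 1 or 2 (limma, adjusted p = 0.0716 and 0.0919). Contig_35101 was no longer called without any 1 of the arrays other than Picual 3 (0.0747 to 0.134), nor Contig_52105 without any 1 of the arrays other than Picual 1 (0.0687 to 0.141).

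Among the 5 largest falls of bright contigs, Contig_44822 and Contig_32666 kept their calls without each array in turn. Contig_44822 read 1131, 823 and 631 in Arbosana and 5664, 7295 and 4509 in Picual, a 6.82-fold difference (limma, adjusted p = 0.00512). Contig_32666 read 681, 865 and 943 in Arbosana and 4583, 3884 and 3145 in Picual, a 4.65-fold difference (limma, adjusted p = 0.00681). Both were also low in dormant Picual, at 696 ± 327 and 851 ± 701 (SD, n = 3). Contig_63082 was 4.54-fold lower in Arbosana (limma, adjusted p = 0.0104), and its call was lost without Arbosana 2 (0.0544). Contig_32133 was 4.71-fold lower (limma, adjusted p = 0.0252), lost without Arbosana 2 (0.105), Arbosana 3 (0.0561) or Picual 2 (0.0776). Contig_20882 was 8.10-fold lower (limma, adjusted p = 0.0327), and it had 1 divergent array: Arbosana 3 read 6002 beside 1339 and 1279. Its call was kept without Arbosana 3 and lost without any 1 of the other arrays (0.0685 to 0.123).

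The levels of the called contigs in the other groups were then examined as a description, since the contigs had been chosen on the Arbosana and Picual arrays. Before doing so, arrays of these groups lying at least 8-fold from both others of their group were counted over all contigs. SILe 3 did so at 2735 contigs (67 of them called), and dormant Picual 1 at 226 (35). The library labelled simple branching 3 did so at 89 (29), LarD 2 at 64 (2) and the library labelled Chiquitita 1 at 57 (26). Of all contigs 3.98% were called, and the called shares for SILe 3 and LarD 2 were below that. The libraries labelled Chiquitita 1 and simple branching 3 are described here, because they stood apart at shared contigs. At 6 of the 20 contigs with the largest changes, the library labelled Chiquitita replicate 1 lay at least 8-fold from both other Chiquitita arrays, and at the same 6 the library labelled simple branching replicate 3 lay at least 8-fold from both others of its group. Contig_2311, for example, read 3246 in the library labelled Chiquitita 1, 13.3 and 20.9 in Chiquitita 2 and 3, 1953 and 4823 in simple branching 1 and 2, and 16.5 in the library labelled simple branching 3. Over all contigs, 46 separated Chiquitita 2 and 3 from simple branching 1 and 2 by at least 8-fold. The library labelled Chiquitita 1 was nearer simple branching at all 46, and the library labelled simple branching 3 was nearer Chiquitita at 45. Of these 46 contigs, 21 were among the 1489 called between Arbosana and Picual, against 3.98% of all contigs. Neither library is among the 6 arrays of the main comparison, and the cause was not tested.

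Dormant Picual shoot tips have the genotype of active Picual at another stage of growth. Of the contigs called higher in Arbosana, dormant Picual was nearer Arbosana than active Picual at 35.5%, and of those called lower at 37.2%. This share became smaller as the change between the varieties became larger. It was 40.6% of the 806 contigs that changed 2 to 4-fold, 37.6% of the 442 that changed 4 to 8-fold, 25.5% of the 149 that changed 8 to 16-fold and 14.1% of the 92 that changed at least 16-fold. Leaving out each dormant Picual array in turn gave 34.1% to 43.4% in the smallest class and 9.78% to 15.2% in the largest. Between these classes the estimate of a change also differs in its relative error, and the part of that in the shares was not tested. In the largest class dormant Picual was nearer Arbosana at 8 of the 43 contigs higher in Arbosana, against 32 to 35 in the Picual x Arbequina pools. Of the 49 lower it was 5, against 4 to 6 in those pools. Of all contigs called lower, the shares in those pools were 15.2% (LILe) to 29.6% (LarD), below the 37.2% of dormant Picual. This order was not firm for LarD and SILe. Leaving out each array in turn gave 23.6% to 41.1% for LarD, 12.3% to 37.4% for SILe and 30.5% to 41.6% for dormant Picual. For LILe and SmaD the highest such share was 22.4%.

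Arbequina was nearer Arbosana than Picual at 69.7% of the contigs called higher in Arbosana and at 45.1% of those called lower. With the size of the change the share went from 54.0% (2 to 4-fold) through 50.9% and 63.8% to 68.5% (at least 16-fold). The contigs higher in Arbosana carried this, with 206 of 315 in the smallest class and 39 of 43 in the largest, while of those lower in Arbosana it was 229 of 491 and 24 of 49. Seedling pools also had a larger share in the largest class than in the smallest. It went from 43.1% to 59.8% in complex branching, 37.3% to 52.2% in ChiCa and 35.1% to 52.2% in simple branching. For LILe it was 27.4% and 41.3%, for SmaD 24.4% and 41.3%, for SILe 39.2% and 44.6%, and for LarD 41.6% and 44.6%. Chiquitita, bred from Picual and Arbequina, was nearer Arbosana at 35.1% of the contigs called higher and 22.8% of those called lower; without the library labelled Chiquitita 1 the shares were 36.5% and 24.9%. Its shares by size of the change ran from 23.5% to 34.8%, and from 25.6% to 32.6% without that library.

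**Figure D4:**
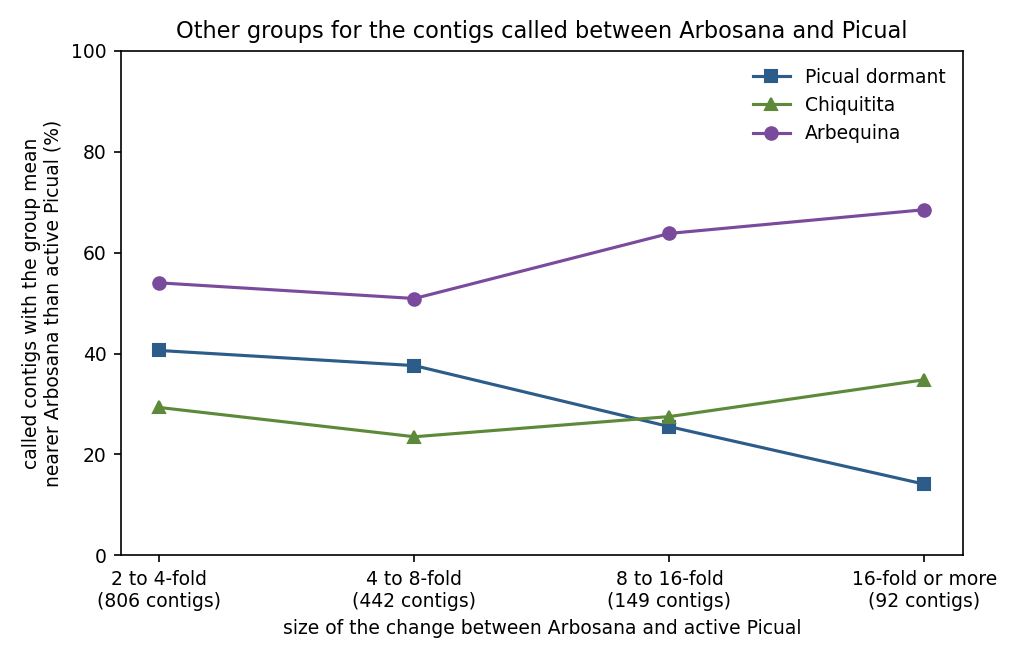
Percent of the called contigs at which the mean of 3 arrays of another group was nearer Arbosana than active Picual, by the size of the change between those varieties. Dormant Picual goes from 40.6% in the smallest class to 14.1% in the largest, while Arbequina goes from 54.0% to 68.5%. The seedling pools, which also had a larger share in the largest class than in the smallest, are not drawn.

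The contigs at opposite ends of the intensity range showed a similar closeness of dormant to active Picual. There were 17 called contigs over 1000 in Arbosana and under 64 in active Picual, and in dormant Picual 13 of them were also under 64, 3 lay between and 1 was over 1000. That 1 was Contig_39596, with geometric means of 2731 in Arbosana, 39.3 in active Picual and 2509 in dormant Picual. Of the 14 contigs under 64 in Arbosana and over 1000 in active Picual, 0 were under 64 in dormant Picual and 9 were over 1000. In Arbequina 10 of the 17 were over 1000 and 4 of the 14 were under 64. In each pool of Picual x Arbequina seedlings 1 or 2 of the 17 were under 64. Of the 14, 0 were under 64 in these pools and 7 (SILe) to 10 (SmaD) were over 1000. Dormant Picual thus stood apart from these pools at the 17 but not at the 14.

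The 20 contigs with the largest changes fell into several patterns across the groups. Contig_44061 was dim in Picual, both active and dormant (36.8 ± 1.36 and 77.5 ± 73.3, SD, n = 3), and between 2060 and 9379 in the mean of every other group. Contig_20449, Contig_25355, Contig_38225 and Contig_66381 were likewise low in Picual and at least 441 in the mean of all 10 other groups. At Contig_38225 single arrays overlapped: SILe 3 read 93.9 beside 1797 and 861, and dormant Picual 1 read 212 beside 32.5 and 24.5. Contig_9751 was the most restricted: it stood at 1064 ± 376 in Arbosana, 85.9 in ChiCa and 127 in complex branching in the mean, and at most 16.7 in the mean of Arbequina, Picual and the Picual x Arbequina pools. In Chiquitita it read 13.1 and 19.2 on replicates 2 and 3, and 99.0 in the library labelled Chiquitita 1. Simple branching 1 and 2 read 69.6 and 28.0, and the library labelled simple branching 3 read 13.1.

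Contig_2311, Contig_23400, Contig_29266 and Contig_52085 shared a profile. They were high in Arbosana and Arbequina, with means from 1422 (Contig_29266) to 9471 (Contig_52085) in Arbequina, and at most 29.4 on every Picual array, active or dormant, apart from Picual 3 at Contig_52085, which read 43.2. On Chiquitita replicates 2 and 3 they lay between 13.3 and 30.0, close to Picual, and in the library labelled Chiquitita 1 between 1112 and 4698. Their means were also high in ChiCa (1039 to 4870) and in complex branching (1328 to 4104). In the pools of Picual x Arbequina seedlings their means ran from 280 to 5815. The low end was SILe at Contig_23400, where SILe 3 read 31.8 beside 436 and 372. Whether these contigs are parts of 1 transcript was not tested.

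Among the falls, Contig_19725 was near 20 in Arbosana and Arbequina (22.7 ± 12.9 and 19.7 ± 3.16, SD, n = 3) and at least 1101 in the mean of every other group. Contig_41913 was also dim in both (13.4 ± 3.45 and 15.2 ± 4.19), against 674 ± 267 in active Picual. Contig_34653 split the groups in another way: it stood at 862 ± 207 in active and 599 ± 137 in dormant Picual and between 271 and 663 in the mean in SILe, LILe and SmaD, and between 13.9 and 20.8 in the mean in Arbosana, Arbequina, Chiquitita and ChiCa. Single arrays stood apart: SILe 3 read 59.8 beside 317 and 437, LarD read 44.8, 413 and 42.4, complex branching 3 read 56.1 beside 22.1 and 14.6, and the library labelled simple branching 3 read 86.3 beside 10.6 and 14.3. Contig_23128 and Contig_32108 were low in Arbosana, Arbequina and the complex branching pool. Contig_23128 stood at 111 ± 26.6 and Contig_32108 at 72.3 ± 29.4 in complex branching, while Chiquitita and ChiCa were at least at 1572 in the mean at both contigs. Contig_67466 differed between Arbosana and Arbequina, at 60.5 in Arbosana and 10585 in Arbequina in the mean.

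**Figure D5:**
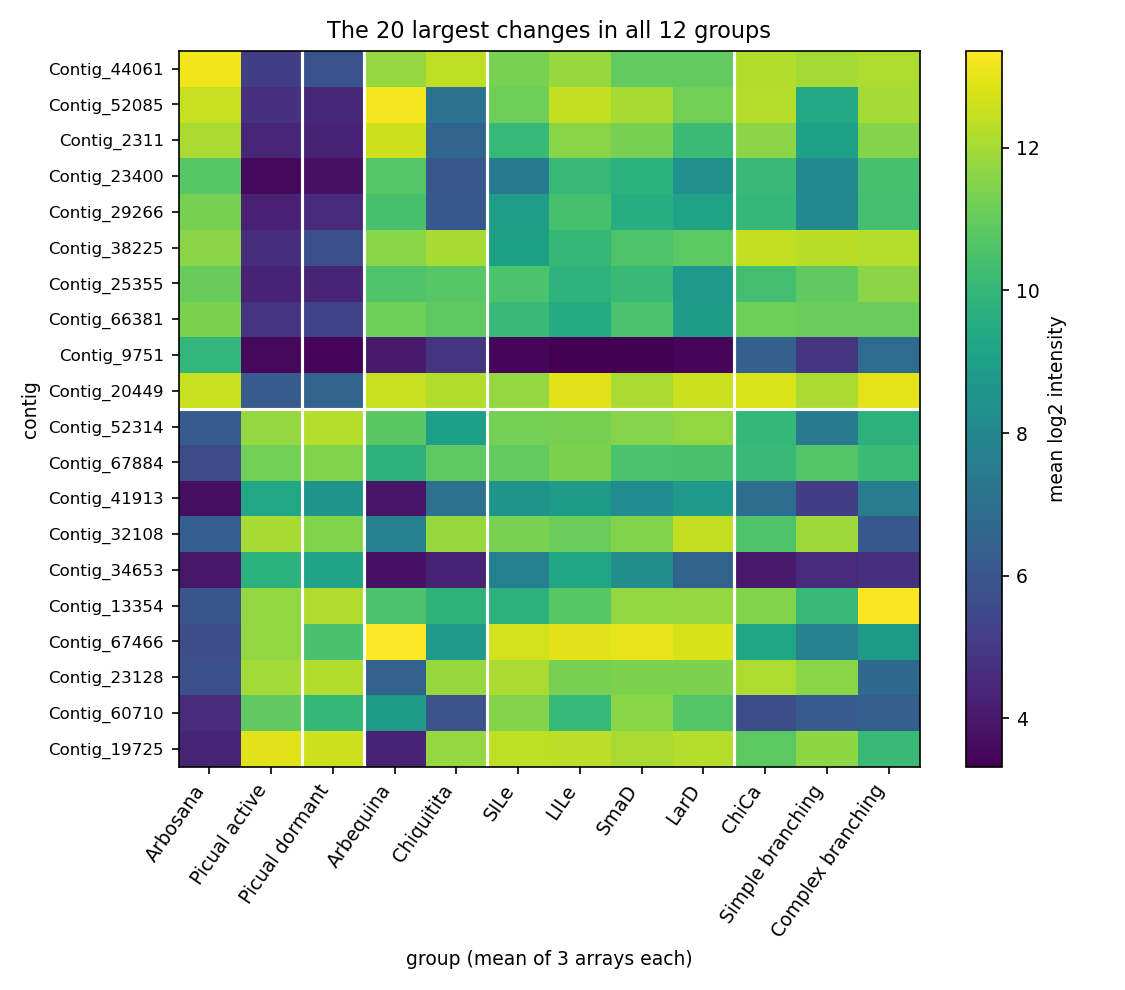
Mean log2 intensity of 3 arrays for the 20 contigs with the largest changes between Arbosana and active Picual, in each of the 12 groups; the upper 10 contigs rose and the lower 10 fell in Arbosana. The dormant Picual column follows the active Picual column at most contigs, and Contig_9751 is bright in the Arbosana column only. The libraries labelled Chiquitita 1 and simple branching 3 are included in the means of their columns. Some of these means therefore lie between the levels of single arrays, as at Contig_52085 in Chiquitita (4698, 30.0 and 20.1).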

How the data were processed

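Per the labels, the authors' arrays were normalized by RMA (version not given in the sources used here) after labelling and scanning at NimbleGen. What they deposited is a normalized intensity, 1 value for each contig on each array, in linear units, and log2 of it was taken here. A second table, with 36 columns that match no sample label, was not used, so signal over background was not examined. Arrays carry no read counts, so the 3 arrays in a group set the precision.

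Arbosana and active Picual were compared on their 6 arrays in limma 3.58.1 (R 4.3.3; lmFit, eBayes, two-sided), without covariates or filters. Adjustment was by Benjamini-Hochberg over 37449 contigs. Calls needed an adjusted p below 0.05 and a change of 2-fold or more. The methods' t-test was run as an alternative, as were other variance models, array weights, normalizations, a filter on dim contigs, added intensity, the replicate block and fits without each array. Simulated data were used to test the fit. Figures were drawn with matplotlib 3.10.9 (Python 3.11.15, numpy 2.4.6).

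The contigs named are the 14 of the study, the 10 largest rises and falls among calls without overlap, and the 5 largest of each among contigs above the median level in both groups. Contig_39596 and the libraries labelled Chiquitita 1 and simple branching 3 were singled out after their values were seen. The members and lists were chosen with earlier results of these data known. Of the contig identifiers, 0 matched the table of 47911 olive genes, so pathways were not analysed here.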

Additional observations from a re-analysis of the deposited data

How the results depend on the processing

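The count of 1489 contigs called between Arbosana and active Picual (595 higher, 894 lower) depended on the test and the arrays. The methods' t-test without adjustment called 3688 contigs on log2 values (1566 higher, 2122 lower) and 3260 on linear values (1363 and 1897), and with Benjamini-Hochberg adjustment 65 (32 and 33). A test against a 2-fold change (limma treat) called 193 (80 and 113). More arrays in the fit gave 3519 calls with the 12 arrays of the varieties (1442 and 2077) and 3240 with all 36 (1388 and 1852). Array weights gave 5592 (3064 and 2528), of which 54.8% were higher in Arbosana against 40.0% in the fit reported, and weights by the gene by gene method, chosen after seeing the data, gave 3181 (1515 and 1666). No fold minimum, a trend with robust variances, quantile normalization, median centring, leaving out the lowest 25% of contigs and adding 32 to each intensity gave 1370 to 1810 calls. Leaving out each array gave 370 to 1295 calls, with 157 to 567 higher and 213 to 728 lower; the share higher ran up to 50.8%, without Picual 1. Of the 14 contigs the study names, 6 were called; 0 were called under the adjusted t-test and under limma treat, where the unadjusted t-test on log2 values called 9, and 2 to 4 were called without each array.

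The replicate number as a block gave 751 calls (312 and 439). The numbers do not show a pairing: deviations of same-numbered arrays correlated at -0.00243, -0.0641 and 0.124, and 0 of the 3 Arbosana arrays matched best with its own number.

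For the called contigs, median positions between Picual (0) and Arbosana (1), averaged over 3 arrays, moved when only bright contigs were used, for Arbequina from 0.558 to 0.641, Chiquitita from 0.266 to 0.355, complex branching from 0.430 to 0.505 and LILe from 0.254 to 0.368; on linear values Arbequina was at 0.605. The direction of Contig_12843, -0.01 in log2, turned to 0.0023 with quantile normalization, 0.0207 with median centring, 0.11 without Arbosana 1 and 0.03 without Picual 2 or Picual 3, and over the arrays left out it ran from -0.091 to 0.11. It was the 1 named contig whose direction turned.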
